A study of Mus musculus with 18 samples.

Results

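RNA was compared between C2C12 myotubes that received the second of 2 siRNAs against Setd2 and C2C12 myotubes that received a control siRNA. The comparison rests on 6 of the 18 polyA RNA libraries of the series: 3 labelled si-Setd2#2 and 3 labelled si-Ctrl, all of the differentiated stage. Members were chosen by these labels and the matching library names, with no measured value in the rule. C2C12 is a mouse skeletal muscle cell line that divides as single-nucleus myoblasts and fuses into multinucleate myotubes once it is made to differentiate. The remaining 12 libraries are 3 myotube libraries of siRNA 1 and 9 myoblast libraries with the same 3 treatments. Every group, controls included, was stretched just before its RNA was taken, so the controls are stretched cells and no unstretched group was analysed here. Doses, harvest times and the age of the myotubes are not given in these sources. All libraries come from 1 cell line, labelled as biological replicates, and nothing states that they came from separate cultures, so p-values measure the spread between these libraries. Library names start with C13 or D1, whose meaning is not given: 2 controls and 1 siRNA 2 library are C13, and 1 control and 2 siRNA 2 libraries are D1. The third control library is named NT_2 where the others are named NT_1, and whether it received the same control siRNA is not given.

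SETD2 places the trimethyl mark on lysine 36 of histone H3 (H3K36me3) as it travels with RNA polymerase II along transcribed genes. The mark is read by DNA methyltransferases, by mismatch repair proteins and by proteins that keep transcription from starting inside gene bodies, and it has been tied to splicing and DNA repair. In muscle the enzyme is known for its part in myoblast proliferation and differentiation. A myotube has left the cell cycle, builds sarcomeres and calcium-handling membranes, and relies on mitochondrial respiration and glycolysis for energy.

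The 3 controls held 43.5 to 66.6 megareads of estimated counts and the siRNA 2 libraries 48.6 to 59.9 megareads, and 16097 genes were tested. Along the axis of largest variance over the 9 myotube libraries (48.1% of it) the controls lay between -13.64 and -11.36, siRNA 1 between -0.59 and 1.92 and siRNA 2 between 10.42 and 12.6, while the third axis (14.2%) followed the prefix. Ribosomal RNA-like sequence took 1.27% to 2.30% of the counts in controls and 2.26% to 2.99% with siRNA 2. The cells carried the markers of their stage: the 10 myotube markers summed to 18200 to 19720 CPM (counts per megaread, scaled between libraries) in controls and 20360 to 22260 CPM with siRNA 2. Fibroblast markers, 10 of 12 of which were tested, summed to 2206 to 2826 CPM in controls and 1902 to 2630 CPM with siRNA 2. Of 10 adipocyte markers 4 were tested and summed to 81.4 to 87.7 against 69.9 to 75.8 CPM, most of it from Cd36 (which fell) and Lpl (which rose), while Plin1, Cidec and Cfd had 0 counts in all 9 libraries. Of 10 bone and cartilage markers 5 were tested and summed to 1197 to 1459 against 1067 to 1179 CPM, most of it Spp1, with Acan and Ibsp at 0. Of 8 endothelial markers 4 were tested (median 0.78): Tek, Vwf and Cdh5 rose, and Eng, at -0.20, was not called. Their sum was 5.41 to 6.05 against 7.04 to 7.65 CPM. Emcn was at 0, and Pecam1, Kdr and Tie1 had 38, 11 and 1 counts in all 9 libraries. Of 8 macrophage and leukocyte markers 3 were tested. Of these 1 rose (Cd68), and the lowest stood at -0.21 and was not called. They summed to 3.98 to 4.32 against 4.57 to 4.69 CPM, with Adgre1 at 0. Among other alternatives, the Cd68 call was lost by DESeq2, without the library prefix as a covariate and without control replicate 1, 2 or 3. That of Cdh5 was lost with same-prefix libraries summed and without control replicate 2 or 3 or siRNA 2 replicate 1 or 2. Of 8 smooth muscle markers 7 were tested, 1 called up and 2 down, and summed to 5037 to 5188 against 4986 to 5401 CPM. Of 8 Schwann cell and neuron markers 6 were tested, 1 called up and 1 down. Their sum was 58.7 to 74.4 CPM in controls, 42.0 to 51.6 CPM with siRNA 2 and 42.4 to 50.6 CPM with siRNA 1. Whether other cell types took part in the results was not tested.

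Setd2 itself (ENSMUSG00000044791, mm10 chromosome 9, 110532597 to 110618633, plus strand) stood at 105.1, 104.6 and 99.3 CPM in the controls and at 38.2, 34.8 and 33.6 CPM in the siRNA 2 libraries. All 3 siRNA 2 libraries were far below the lowest control. The fall was 1.47 on the log2 scale (SE 0.14, edgeR quasi-likelihood adjusted p = 0.000613), from 103.0 ± 3.19 to 35.5 ± 2.39 CPM (SD, n = 3). The main coding transcript of the gene carried 90.0% of its counts and fell from between 94.7 and 98.4 to between 29.5 and 33.6 counts per megaread. With siRNA 1, Setd2 stood at 58.2, 37.9 and 38.1 CPM, and the difference of siRNA 2 from siRNA 1 was -0.32 (SE 0.14, adjusted p = 0.186), which does not show that both reached the same level. In myoblasts the log2 fold change was -1.34 in the fit of all 18 libraries, and the difference between stages was -0.13 (adjusted p = 0.650).

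**Figure D1:**
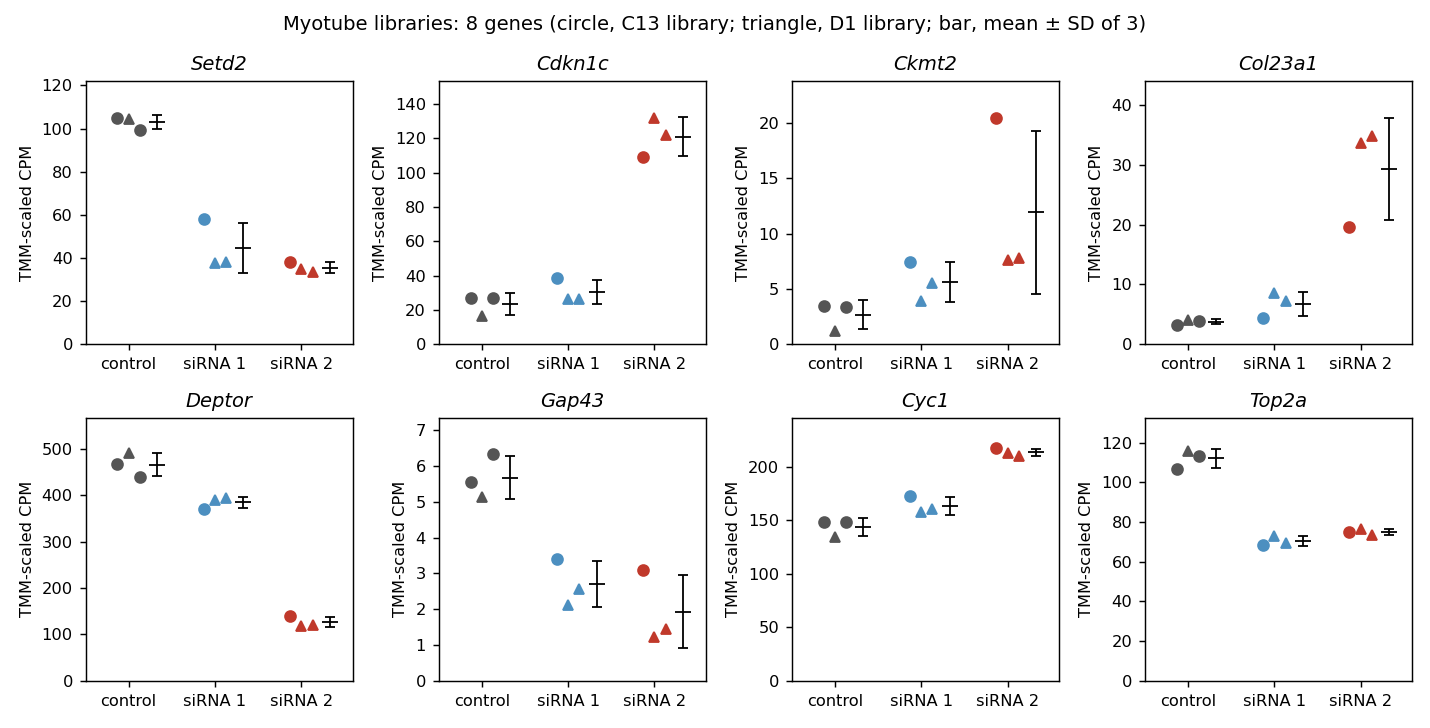
TMM-scaled CPM of 8 genes in the 9 myotube libraries, by group, with circles for C13 libraries, triangles for D1 libraries and bars for the mean ± SD of 3 libraries. Setd2, Deptor, Gap43 and Top2a were lower in all siRNA 2 libraries than in any control and Cdkn1c, Ckmt2, Col23a1 and Cyc1 higher, with Deptor between 119.3 and 140.1 CPM against 440.0 CPM or more in controls.

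Across the transcriptome siRNA 2 moved many genes by a little and few by much. At an adjusted p under 0.05, 2941 genes rose (18.3% of those tested) and 3129 fell (19.4%). The median absolute log2 fold change of the called genes was 0.26. Of these calls, 990 reached 1.5-fold (639 up and 351 down), 412 reached 2-fold (298 up and 114 down) and 54 reached 4-fold (45 up and 9 down), so the larger changes were more often rises. On the deposited TPM scale (log2(TPM + 1), limma) the share of calls that were rises was 26.2%, against 48.5% on counts. Of 13631 genes tested on that scale 1409 rose and 3974 fell, and the median of all genes moved from -0.011 to -0.085. List counts on that scale belong beside these numbers and not beside the 18.3% and 19.4% on counts. Against the same controls, siRNA 1 raised 2344 genes (14.6%) and lowered 2061 (12.8%). Tested directly, 1919 genes were higher with siRNA 2 than with siRNA 1 (11.9%) and 2111 lower (13.1%).

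**Figure D2:**
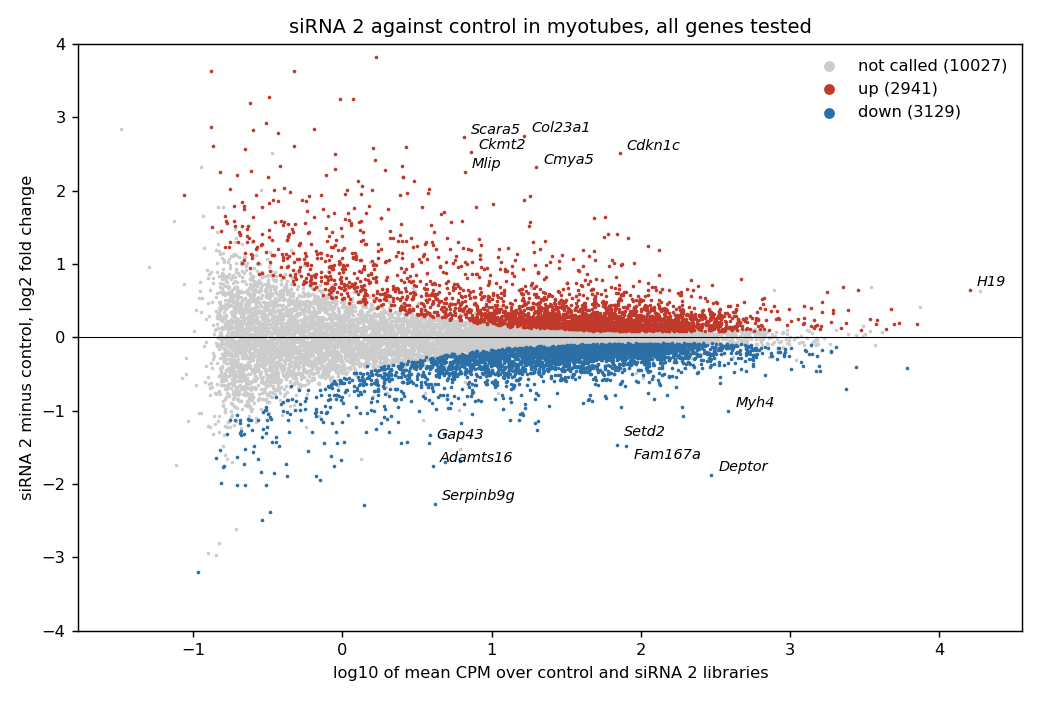
Log2 fold change of siRNA 2 against control (vertical) by the log10 of the mean CPM over both groups (horizontal) for the genes tested, with genes that rose in red, genes that fell in blue and the others in grey; 2 genes lie outside the plotted range. The calls split into 2941 rises and 3129 falls, and rises of more than 2-fold (298) outnumber such falls (114).

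The 12 largest rises among protein-coding genes of at least 5 CPM held a group of striated muscle genes. Ckmt2, the mitochondrial creatine kinase of sarcomeric muscle, stood at 3.49, 1.18 and 3.35 CPM in controls and at 20.4, 7.58 and 7.80 CPM with siRNA 2. The C13 library of siRNA 2 was the highest by far, and the groups did not overlap (log2 fold change 2.52, SE 0.21, adjusted p = 5.14e-05; 2.21, adjusted p = 0.0739, in the 6 libraries alone with no prefix term). Cmya5, the large costamere and triad protein myospryn, rose from 9.87, 5.24 and 7.53 CPM to 46.0, 24.95 and 25.6 CPM (2.32). Mlip, a lamin-interacting protein of heart and skeletal muscle, rose from 2.92, 1.32 and 3.16 CPM to 10.8, 10.4 and 11.1 CPM (2.25). Acetylcholinesterase, Ache, which ends transmission at the neuromuscular junction, and Colq, the collagen tail that anchors it there, rose together: Ache from 7.51, 6.89 and 7.69 CPM to 26.7, 31.7 and 27.5 CPM (1.93, SE 0.08, adjusted p = 5.22e-09), and Colq from 8.75, 5.77 and 7.95 CPM to 30.4, 21.9 and 23.9 CPM (1.87, SE 0.11). In the neuromuscular junction list as a whole, 4 of 17 genes tested rose and 3 fell, shares near the 18.3% and 19.4% of all genes. The median of 0.01 turned to -0.10 on log2(TPM + 1). The falls included Lrp4, the agrin receptor (-0.34), and Utrn, the dystrophin relative utrophin (-0.22), whose call was lost with no prefix term.

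Other leading rises concern the cell cycle, matrix and secreted signals. Cdkn1c, the imprinted cyclin-dependent kinase inhibitor p57, stood at 27.1, 16.3 and 26.8 CPM in controls and at 108.9, 131.6 and 121.9 CPM with siRNA 2. Every siRNA 2 library was far above the highest control (log2 fold change 2.51, SE 0.23, adjusted p = 0.000636), while siRNA 1 left it at 38.6, 26.4 and 26.3 CPM. Col23a1, a transmembrane collagen, rose from 3.24, 4.07 and 3.88 CPM to 19.6, 33.7 and 34.9 CPM (2.75, SE 0.14, adjusted p = 5.25e-07). Scara5, a scavenger receptor that takes up ferritin, rose from 2.24, 1.44 and 2.06 CPM to 12.3, 11.1 and 10.01 CPM (2.73). Sfrp2, a secreted inhibitor of Wnt signalling, rose from 1.28, 1.44 and 1.58 CPM to 4.09, 5.75 and 6.39 CPM (1.77). The remaining large rises were the kinesin Kif26a (1.97), the O-glycosylation enzyme Galnt5 (1.82) and Armh4 (2.02), whose call was lost with same-prefix libraries summed (adjusted p = 0.0517) and without control replicate 2 (adjusted p = 0.0584).

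Deptor, a protein that binds and inhibits mTOR, was among the 12 largest falls and the most abundant of them. It stood at 468.0, 490.5 and 440.0 CPM in controls and at 140.1, 119.3 and 121.4 CPM with siRNA 2 (log2 fold change -1.88, SE 0.07, adjusted p = 5.17e-08). With siRNA 1 it stood at 371.3, 390.0 and 393.8 CPM, above every siRNA 2 library. Fam167a fell from 102.9, 143.2 and 99.9 CPM to 34.0, 51.7 and 50.2 CPM (-1.49). Gap43, a growth cone protein of neurons also found in developing muscle, fell from 5.55, 5.13 and 6.34 CPM to 3.09, 1.23 and 1.45 CPM (-1.44). The taste receptor subunits Tas1r1 (-1.17) and Tas1r2 (-1.33) fell, as did the metalloproteinase Adamts16 (-1.75) and the lectin Colec10 (-1.17). Serpinb9g (-2.27) belongs to a cluster of near-identical serpin genes that can share reads, so its value is uncertain.

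Genes of the respiratory chain rose together, by small amounts and in nearly every subunit. Of the 80 nuclear genes of complexes I to IV and ATP synthase that were tested, 72 rose and 3 fell, against 18.3% rising and 19.4% falling over all genes, and their median log2 fold change was 0.28. Among complex I genes, which feed electrons from NADH into the chain, 32 of 37 rose and 1 fell (Ndufa7, -0.19). Ndufb10 stood at 61.9, 58.6 and 59.2 CPM in controls and at 89.1, 82.4 and 79.0 CPM with siRNA 2 (log2 fold change 0.51, SE 0.04, adjusted p = 8.43e-08). Of 14 genes of complexes II and III, 13 rose and none fell. Cyc1, cytochrome c1 of complex III, rose from 148.0, 133.8 and 148.4 CPM to 216.8, 213.0 and 209.7 CPM (0.61, SE 0.03, adjusted p = 9.65e-09). Among cytochrome oxidase and ATP synthase genes 27 of 29 rose and 2 fell. Cox7a1, the oxidase subunit of heart and skeletal muscle, had the largest fold (3.70, 2.71 and 3.50 CPM against 10.03, 9.77 and 8.47 CPM; 1.59), and Atpif1, the inhibitor of ATP synthase, went down (-0.26). In all of these examples the groups did not overlap. Over all genes tested 21.82% lay wholly above the controls and 23.69% wholly below them. The list counts under other settings ranged from 25 to 32 rises for complex I, 12 to 13 for complexes II and III and 21 to 27 for the oxidase and synthase.

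Many nuclear genes of respiration carry sites for NRF1, a transcription factor that coordinates them, so the promoters of this list were searched for its core word. RefSeq promoters (GRCm38.p6, 250 bases before to 50 after each start) were matched for 66 of the 80 genes. The word GCGCATGC, read on both strands, whose matches overlap in part, stood in 11 of the 66 (16.67%). It stood in 14.29% of 49 promoters of mitochondrial ribosomal protein genes, close to the respiratory share, in 5.715% of the 11007 tested genes with a promoter, in 8.824% of 34 mitosis promoters and in 2.712% of all 32851 windows of that length. Among the respiratory genes called up it stood in 10 of 60 (16.67%), and Atp5k, which fell (-0.12), also carried it. The word AAGGTCA of the ERR receptors was searched too. That word stood in 9 of the 66 (13.64%), against 3.934% of the tested genes with a promoter. The genes Ndufa11, Sdhb and Cycs, chosen after their values were seen, show GCGCATGC in 3 promoters of different parts of the chain, 5′ to 3′ on the gene's strand, with the word or its reverse complement in capitals.
Ndufa11 (complex I; chr17:56717691-56717720, plus strand, log2 fold change 0.39): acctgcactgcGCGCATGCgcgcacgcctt
Sdhb (complex II; chr4:140961206-140961235, plus strand, 0.31): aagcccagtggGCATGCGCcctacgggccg
Cycs (cytochrome c; chr6:50566611-50566640, minus strand, 0.24): catgctagctcGCATGCGCgcgcacaaacc
The match in Sdhb starts 54 bases before the annotated start, and those of Ndufa11 and Cycs start 60 bases before it. A match describes letters only, and binding of NRF1 or of ERR receptors was not measured.

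Other energy genes moved the same way. Of 28 glycolysis genes tested 19 rose and 2 fell (median 0.29). Pygm, muscle glycogen phosphorylase, rose from 380.8, 334.1 and 337.3 CPM to 627.3, 580.2 and 573.1 CPM (log2 fold change 0.80, SE 0.04, adjusted p = 6.86e-09), Pgam2, the muscle phosphoglycerate mutase, by 0.69 and aldolase A, Aldoa, by 0.62, while the non-muscle mutase Pgam1 fell (-0.16), a call lost without control replicate 2. Of 28 fatty acid oxidation genes 21 rose and 2 fell (median 0.27; 13 of 27 rose on log2(TPM + 1)). The 2 that fell were Cd36, the fatty acid transporter (57.4, 60.7 and 53.3 CPM against 31.9, 33.3 and 31.8 CPM; -0.85), and Cpt2, the inner carnitine palmitoyltransferase (26.7, 24.5 and 27.1 CPM against 16.8, 13.6 and 13.9 CPM; -0.78). Acadvl, which starts the oxidation of very long chains, rose by 0.39, and lipoprotein lipase, Lpl, by 0.87. Mitochondrial ribosomal protein genes rose in 34 of 57 cases with none falling (median 0.16; Mrps23 0.33), and cytosolic ribosomal protein genes in 46 of 67 with none falling (median 0.12; Rps21 0.35). The cytosolic ribosomal count depends on the scale: on log2(TPM + 1) 12 rose and 2 fell, with a median of 0.05, and 27 rose with no prefix term. The mitochondrial ribosomal count on that scale was 19 up and 1 down.

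**Figure D3:**
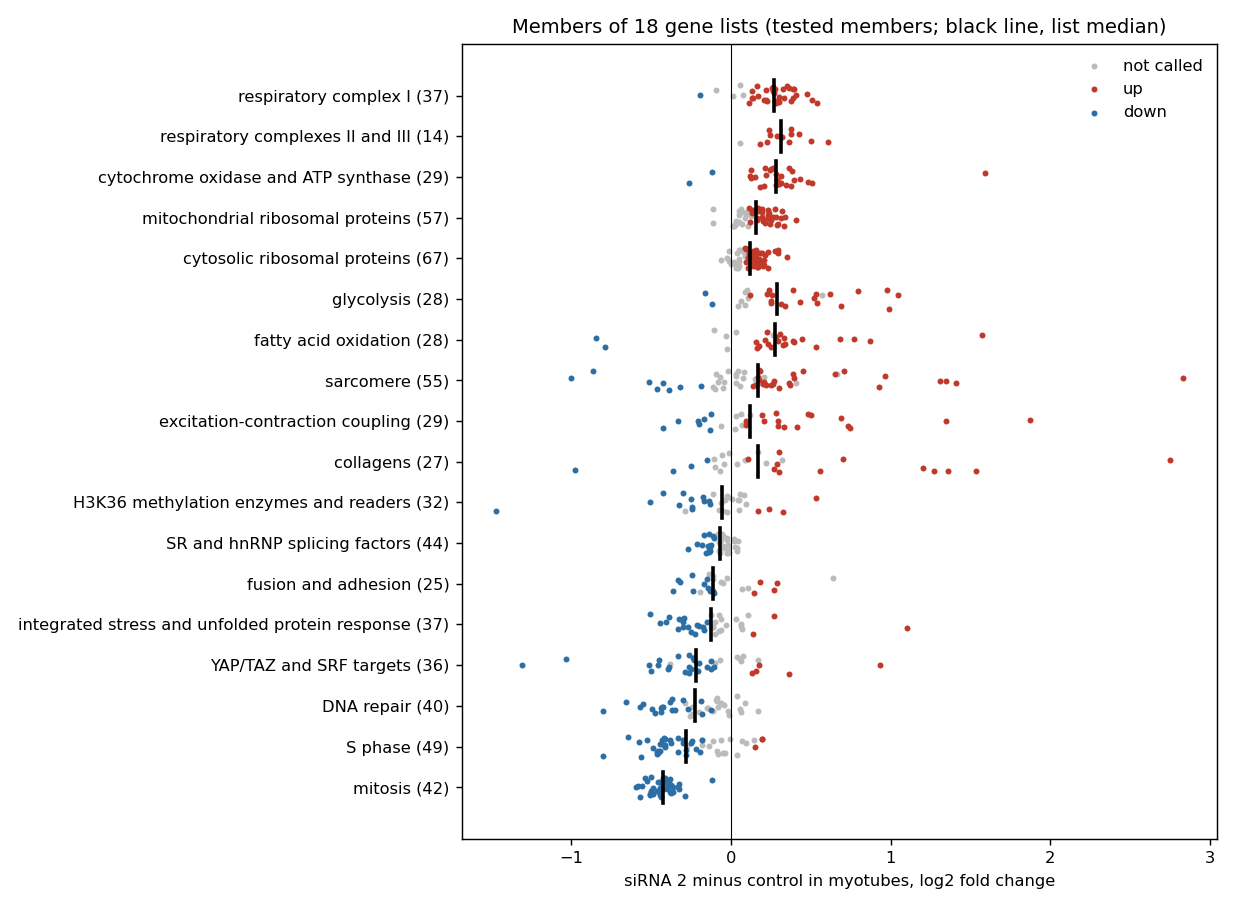
Log2 fold changes of siRNA 2 against control for the tested members of 18 gene lists, 1 point per gene, with rises in red, falls in blue, uncalled members in grey and the list median as a black line. Respiratory complex genes sit to the right of 0 with medians of 0.27 to 0.31, and all 42 mitosis genes sit to the left.

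Contractile genes rose more often than they fell. Of 55 sarcomere genes tested 26 rose and 8 fell (median 0.17), and on log2(TPM + 1) 19 rose and 14 fell. Tnni2, fast troponin I, rose from 552.6, 561.0 and 537.4 CPM to 728.9, 780.5 and 784.7 CPM (log2 fold change 0.45, SE 0.03, adjusted p = 1.11e-07), and Smpx, a small muscle protein that responds to stretch, rose by 0.65. Myoz1, a Z-disc protein of fast fibres, rose by 0.93 with siRNA 2 and stood at -0.24 with siRNA 1. Myh4, the IIb fast myosin heavy chain, went the other way, from 557.0, 494.7 and 487.8 CPM to 275.5, 240.7 and 253.0 CPM (-1.001, SE 0.10, adjusted p = 0.000316). Of 29 excitation-contraction coupling genes 16 rose and 7 fell: the calcium pumps Atp2a1 (0.69) and Atp2a2 (0.48), the calcium sensor Stim1 (0.51) and the potassium channel Kcnj2 (0.75) rose, and sarcalumenin, Srl, fell (-0.43). Of 30 dystrophin complex and costamere genes 12 rose and 7 fell (median 0.08, and -0.01 on log2(TPM + 1)). In this list and the coupling list the falls were near the 19.4% of all genes, and the rises above the 18.3%. Among the rises were laminin alpha 4, Lama4 (1.21, 0.64 and 1.31 CPM against 4.97, 3.51 and 3.59 CPM, log2 fold change 2.18), and delta-sarcoglycan, Sgcd (0.90).

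Myogenic regulators were mixed. Of 28 tested 15 rose and 6 fell (median 0.10), against 18.3% and 19.4% of all genes, so the falls were near the share of all genes. There were 9 rises on log2(TPM + 1) and 3 falls without control replicate 2. Mef2c, a transcription factor of muscle differentiation, rose from 368.9, 383.1 and 358.0 CPM to 489.8, 518.2 and 548.0 CPM (log2 fold change 0.44, SE 0.04, adjusted p = 1.35e-06), and the RNA-binding protein Rbm38 rose by 0.37. Id3, which binds and blocks myogenic factors, fell (-0.79). Myog, the factor that commits cells to differentiate, stood at 881.5, 903.8 and 857.7 CPM against 847.2, 835.9 and 790.8 CPM. That is a log2 difference of -0.06 (SE 0.07, adjusted p = 0.518), which turned to 0.05 without control replicate 2. Of the 10 myotube markers 6 rose (3 on log2(TPM + 1)) and none fell, among them creatine kinase Ckm (0.34) and skeletal actin Acta1 (0.19). Fusion and adhesion genes fell more often than they rose, 11 against 4 of 25 (median -0.11), beside 19.4% and 18.3% of all genes. Among the falls were N-cadherin, Cdh2 (-0.32), and Dock5, a guanine nucleotide exchange factor (-0.33). The falls numbered 7 without control replicate 2, without siRNA 2 replicate 2 or 3 and with no prefix term, and 6 with same-prefix libraries summed.

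All 42 genes of the mitosis list fell with siRNA 2, against 19.4% of all genes, with a median log2 fold change of -0.43 and a range from -0.60 to -0.12. Top2a, the topoisomerase that untangles mitotic chromosomes, stood at 106.9, 116.0 and 113.5 CPM in controls and at 75.0, 76.6 and 73.4 CPM with siRNA 2 (log2 fold change -0.60, SE 0.04, adjusted p = 2.98e-08). Cyclin A2, Ccna2, fell from 38.7, 42.0 and 41.8 CPM to 28.9, 28.9 and 29.4 CPM (-0.51), and the proliferation marker Mki67 from 146.2, 151.0 and 156.5 CPM to 116.3, 115.2 and 106.9 CPM (-0.42). None of these genes overlapped between the groups, and all 42 of the list lay below every control, against 23.69% of all genes tested. Of 49 S-phase genes 31 fell and 3 rose (median -0.28), among them the replicative helicase subunits Mcm6 (-0.45) and Mcm4 (-0.44), DNA ligase 1, Lig1 (-0.57), and Uhrf1, which carries DNA methylation through replication (-0.56). Of 40 DNA repair genes 19 fell and none rose (median -0.22), and 10 fell with same-prefix libraries summed; among them were the partners Bard1 (-0.80) and Brca1 (-0.48). With siRNA 1 against the same controls 41 of the 42 mitosis genes fell and none rose (median -0.51). In bulk RNA fewer dividing cells and less of these RNAs per cell cannot be told apart. The 7 tested myoblast markers summed to 915.5 to 932.9 CPM in controls and 846.7 to 922.5 CPM with siRNA 2, 4 of them called up and 2 down (1 and 2 with no prefix term, 3 and 0 without control replicate 2), and their part in the mitosis result was not tested.

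The promoters of G2 and mitosis genes are known for the cell cycle homology region (CHR), a short element through which the MuvB complexes repress them in resting cells. Its core word TTTGAA, read on both strands, stood in 26 of the 34 mitosis genes with a RefSeq promoter (76.47%), against 14.46% of the tested genes with a promoter, 9.091% of the 66 respiratory promoters and 17.89% of all windows of that length. The genes Mki67, Cdk1, Cdc20 and Ncapg, of which the last 3 were chosen after their values were seen, show the word in capitals on the gene's strand in 4 promoters.
Mki67 (chr7:135716460-135716489, minus strand, log2 fold change -0.42): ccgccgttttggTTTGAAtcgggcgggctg
Cdk1 (chr10:69352910-69352939, minus strand, -0.32): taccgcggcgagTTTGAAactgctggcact
Cdc20 (chr4:118437344-118437373, minus strand, -0.33): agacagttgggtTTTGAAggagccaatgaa
Ncapg (chr5:45669883-45669912, plus strand, -0.50): ccgcgatagttgTTTGAAaactctggcgct
In these promoters the word started 98, 15, 18 and 30 bases before the annotated start. All genes of the mitosis list fell, so the direction of genes with and without the word could not be compared within it. Binding of MuvB complexes was not measured, and a link between the word and the falls was not tested.

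Regulators of the G1 phase did not move as 1 group: of 15 tested 7 rose and 4 fell, against 18.3% and 19.4% of all genes. Their median of 0.10 was -0.002 on log2(TPM + 1). Besides Cdkn1c, cyclin D1, Ccnd1, rose from 40.2 to 53.8 CPM (log2 fold change 0.39) and the inhibitor Cdkn2d by 0.27, while the inhibitor Cdkn2c fell (-0.39). Of 22 p53 target genes 11 rose and 5 fell, against 18.3% and 19.4% of all genes. Ccng1 rose (0.32), and the BH3-only gene Pmaip1 (-0.48), Gadd45a (-0.53) and the kinase Plk2 (-0.85) fell. Rises among the p53 targets numbered 6 without control replicate 2 and 7 without siRNA 2 replicate 1 or with same-prefix libraries summed. On log2(TPM + 1) 4 rose and 7 fell, against 1409 and 3974 of 13631 genes tested on that scale.

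**Figure D4:**
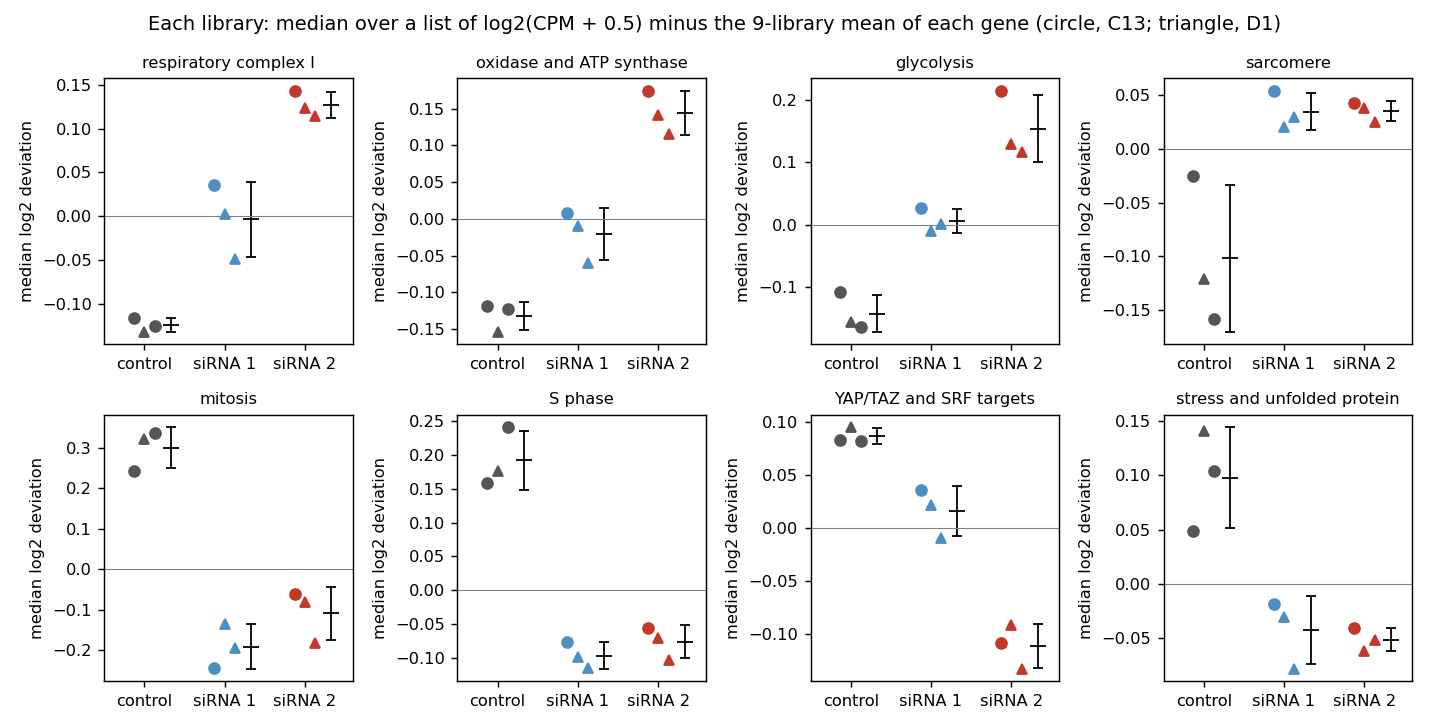
For each of the 9 myotube libraries, the median over the genes of a list of log2(CPM + 0.5) minus the gene's mean over all 9 libraries, with circles for C13 and triangles for D1 libraries and bars for the mean ± SD of 3 libraries. Controls and siRNA 2 do not overlap in any of the 8 lists, and in complex I siRNA 1 lies between them, from -0.05 to 0.04 against 0.11 to 0.14 with siRNA 2 and -0.13 to -0.12 in controls.

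YAP/TAZ and SRF carry mechanical and actin signals to the nucleus. The list named after them holds these factors, their partners and kinases of the pathway beside target genes. Of 36 genes tested 23 fell and 5 rose (median -0.22), against 19.4% and 18.3% of all genes. Of the 40 listed names 4 (Ctgf, Cyr61, Mkl1 and Mkl2) were not in the annotation, so the counts do not cover these genes. Filamin A, Flna, stood at 1356, 1373 and 1410 CPM in controls and at 1061, 1058 and 1043 CPM with siRNA 2 (log2 fold change -0.39, SE 0.04, adjusted p = 1.04e-06). Ankrd1, a stretch-responsive ankyrin repeat protein of muscle, fell from 733.9, 890.6 and 718.1 CPM to 514.6, 614.9 and 597.6 CPM (-0.51), and enteric actin, Actg2, by 1.03 on the log2 scale. Lmcd1 was the exception among those named (0.93). Of 36 tubulin and microtubule genes 15 fell and 5 rose, against 19.4% and 18.3% of all genes. Among the falls were Tuba1a (-0.46) and the destabiliser stathmin, Stmn1 (-0.56). Genes of the stress and unfolded protein response fell in 18 of 37 cases and rose in 3. The chaperone BiP, Hspa5, went from 619.7, 642.9 and 670.0 CPM to 470.4, 510.8 and 497.0 CPM (-0.39), and the cystine transporter Slc7a11 fell by 0.50. Of the 3 risers Vldlr, a lipoprotein receptor, moved most (1.10; adjusted p = 0.0765 with same-prefix libraries summed).

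Cholesterol synthesis genes depended on the prefix. Of 24 tested 4 fell and none rose, with a median of -0.22. Falls numbered 1 with no prefix term, 8 by DESeq2, 14 on log2(TPM + 1) and 17, with 1 rise, without a count filter. Without control replicate 2, 11 fell (median -0.44), 2 fell without control replicate 1 or 3, and without siRNA 2 replicate 1, 3 rose and 4 fell (median -0.01). Within C13 the median was -0.59 and within D1 it was 0.04, so no direction is given for this list.

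Matrix and signalling lists held both rises and falls. Of 27 collagen genes 12 rose and 4 fell (median 0.17), against 18.3% and 19.4% of all genes, and 6 rose and 2 fell with no prefix term. Only 20 of the 27 passed the filter on log2(TPM + 1), where 4 rose and 6 fell with a median of -0.02. The same 20 genes had a median of 0.10 on counts, with 8 up and 4 down. Col8a1, a short-chain collagen, rose by 0.70, although its call was lost with no prefix term, and Col5a2 fell (-0.36). Of 51 other matrix genes 13 rose and 11 fell, against 18.3% and 19.4% of all genes. The falls numbered 7 without control replicate 2 or siRNA 2 replicate 2 and 6 without siRNA 2 replicate 3, and on log2(TPM + 1) 8 rose and 17 fell. Thrombospondin 2, Thbs2, a riser, stood at 64.5, 67.4 and 71.3 CPM in controls and 105.1, 99.0 and 98.5 CPM with siRNA 2 (0.57). Among TGF-beta family genes 7 of 42 rose and 14 fell, against 18.3% and 19.4% of all genes (4 and 9 without control replicate 2, 8 falls with no prefix term, and 4 and 17 on log2(TPM + 1)). The activin antagonist follistatin, Fst, rose from 203.0, 166.1 and 205.4 CPM to 335.3, 264.4 and 273.8 CPM (0.70, SE 0.03, adjusted p = 5.22e-09), and the activin subunit Inhba fell from 17.0, 19.7 and 18.3 CPM to 8.03, 8.31 and 9.03 CPM (-1.13). In the IGF axis 9 of 30 rose and 7 fell, against 18.3% and 19.4% of all genes. The binding proteins Igfbp3 (1.10) and Igfbp5 (0.64) rose, and Pappa, a protease that cleaves such proteins, fell (-0.98). Of 34 immediate early genes 7 rose and 8 fell, shares near those of all genes. Without control replicate 2 the counts were 3 and 5, and without siRNA 2 replicate 3 they were 8 and 5. The orphan receptor Nr4a1 rose from 37.6, 27.2 and 35.3 CPM to 76.9, 55.9 and 62.9 CPM (1.058), while Egr3 fell from 47.7, 59.5 and 49.6 CPM to 25.2, 33.5 and 31.2 CPM (-0.89).

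The H3K36 list holds enzymes and readers of H3K36 methylation. It also holds the Polycomb genes Ezh2, Eed and Suz12, the actin methyltransferase Setd3, and Iws1, Supt6 and Hnrnpl. Of its 32 genes 4 rose and 12 fell, Setd2 among the falls, against 18.3% and 19.4% of all genes. The median was -0.05, and 2 rose without control replicate 2. Dnmt3a, a DNA methyltransferase recruited by H3K36 methylation, rose from 35.3, 36.1 and 37.3 CPM to 56.4, 48.5 and 49.0 CPM (log2 fold change 0.54, SE 0.05, adjusted p = 5.51e-07). Nsd2, which places dimethyl marks on the same lysine, fell from 96.0, 96.6 and 95.7 CPM to 72.2, 68.7 and 71.3 CPM (-0.42, SE 0.04, adjusted p = 1.02e-06), and Nsd3 fell (-0.17) while Nsd1 (-0.02) and Ash1l (-0.05) did not pass the test. The readers Zmynd11 (-0.25) and Msh6 (-0.30) and the demethylase Kdm4a (-0.24) fell. Of 44 splicing factor genes of the SR and hnRNP families 15 fell and none rose, with a median of -0.06, while 6 fell without control replicate 2, 9 without siRNA 2 replicate 1, 6 with same-prefix libraries summed and 28 on log2(TPM + 1) (median -0.17). Transcripts annotated as retaining an intron took 2.07%, 2.05% and 2.15% of the counts in controls and 1.96%, 1.90% and 2.02% with siRNA 2. All siRNA 2 libraries were below the controls (exact permutation p = 0.1, two-sided, the smallest that 3 against 3 can give).

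Imprinted genes include the most abundant long non-coding RNA of these cells. H19 took 1.21%, 1.31% and 1.24% of the counts in controls and 1.83%, 2.02% and 2.01% with siRNA 2 (log2 fold change 0.65, SE 0.04, adjusted p = 4.16e-08). Peg10, derived from a retrotransposon, rose from 27.0, 24.0 and 25.9 CPM to 42.4, 39.3 and 37.6 CPM (0.68). Of 21 imprinted genes tested 7 rose (4 with no prefix term) and 3 fell, against 18.3% and 19.4% of all genes, with a median of 0.24. The 15 of them that passed the filter on log2(TPM + 1) had a median of -0.10 there and of -0.01 on counts. Among 17 genes of the RNA interference machinery 4 rose and 9 fell, against 18.3% and 19.4% of all genes. The microRNA processor Drosha stood at 98.5, 92.5 and 91.7 CPM in controls and at 77.9, 70.2 and 67.6 CPM with siRNA 2 (-0.36). With siRNA 1 it stood at 103.9, 102.1 and 99.1 CPM.

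Calls also varied with gene length among coding genes. Of 1489 tested genes up to 5 kb long 27.33% rose and 12.49% fell, while of 1482 genes between 100 and 300 kb 19.70% rose and 29.62% fell. Their median log2 fold changes were 0.05 and -0.04, and their median control levels 11.2 and 32.3 CPM, so length and abundance differ together. The 336 genes over 300 kb did not continue this: 21.73% rose and 24.11% fell, with a median of 0.02 and a median control level of 13.8 CPM.

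The 2 siRNAs were also compared with each other directly, since their comparisons with control share the control libraries. Ccn3, a secreted matricellular protein, stood at 49.4, 44.5 and 45.5 CPM with siRNA 1 and at 150.0, 167.6 and 158.6 CPM with siRNA 2, on either side of the controls at 62.6, 68.9 and 68.5 CPM (siRNA 2 minus siRNA 1 1.77 log2, adjusted p = 3.19e-09). Pvalb, the calcium buffer parvalbumin of fast fibres (1.72), and Sema3c, a secreted semaphorin (-1.35), likewise had every siRNA 1 library on one side of the controls and every siRNA 2 library on the other. Gzme, a granzyme, stood at 1.06, 1.81 and 1.76 CPM with siRNA 1 and at 6.81, 9.65 and 8.22 CPM with siRNA 2 (2.43), and siRNA 1 overlapped the controls at 1.74, 3.39 and 2.15 CPM. For Col23a1, Cdkn1c and Sfrp2 the differences were 2.13, 2.02 and 1.68 and for Deptor -1.60; that of Cdkn1c had an adjusted p of 0.0911 with same-prefix libraries summed. Zdhhc4, a palmitoyltransferase, was lower with siRNA 2 (10.2, 9.01 and 9.80 CPM) than with siRNA 1 (23.5, 23.5 and 24.5 CPM) or in controls (19.6, 21.9 and 21.2 CPM). Crym, a thyroid hormone-binding crystallin, differed by -1.24, while its log2 difference between siRNA 2 and control was -0.17 (adjusted p = 0.173) and that of siRNA 1 was 1.07. Of the 80 respiratory genes 55 were higher with siRNA 2 than with siRNA 1 and 3 lower, against 11.9% and 13.1% of all genes; the list medians against the shared controls were 0.28 and 0.12. Of 28 myogenic regulators 14 were higher and 2 lower, and of the 36 genes of the YAP/TAZ and SRF list 3 were higher and 17 lower. Of the 42 mitosis genes 4 were higher and none lower.

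The effect of siRNA 2 was compared between myotubes and myoblasts. In the fit of all 18 libraries the siRNA 2 effect in myotubes was higher than in myoblasts for 2933 of 16930 genes (17.3%) and lower for 3200 (18.9%). Of the 42 mitosis genes 39 had a lower effect in myotubes and 1 a higher, with medians of -0.43 in myotubes and 0.11 in myoblasts. Of the 80 respiratory genes 70 had a higher effect in myotubes and 1 a lower, with a median of -0.03 in myoblasts. Genes of the YAP/TAZ and SRF list (24 of 36 lower) had medians of -0.22 and 0.21, and stress and unfolded protein genes (25 of 37 lower) of -0.13 and 0.17. Sarcomere genes (24 of 55 lower, 4 higher) were at 0.17 in myotubes and 0.56 in myoblasts. Among single genes Cnn2, an actin-binding calponin, stood at -0.45 in myotubes and 0.63 in myoblasts (adjusted p of the difference 2.37e-14). Synpo2l, a Z-disc protein, stood at -0.15 in myotubes and 1.94 in myoblasts, and Grb14, an adaptor that restrains the insulin receptor, at 1.53 and -0.63. Cdkn1c stood at 2.51 and 0.46, and Deptor at -1.88 and -0.91. Zdhhc4 fell in both stages, by 1.13 and by 1.53 on the log2 scale.

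**Figure D5:**
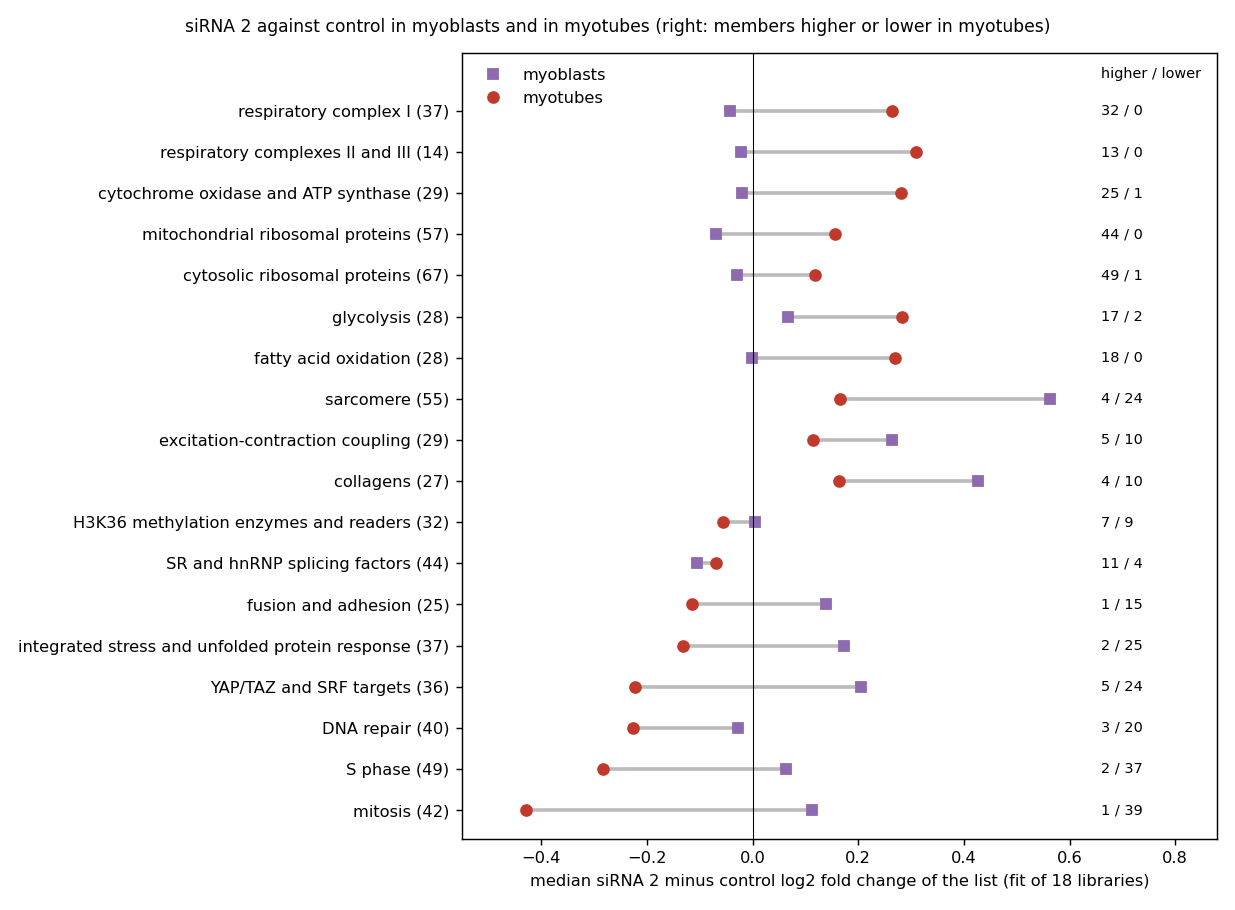
Median log2 fold change of siRNA 2 against control for 18 gene lists in myoblasts (squares) and in myotubes (circles) from the fit of all 18 libraries, with the number of members whose effect was higher or lower in myotubes at the right. Mitosis genes lie at 0.11 in myoblasts and -0.43 in myotubes, and respiratory complex genes near 0 in myoblasts and at 0.26 to 0.31 in myotubes.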

How the data were processed

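PolyA RNA sequencing of C2C12 cells was analysed. The deposited tables, 1 per stage, hold estimated counts and TPM per transcript, the columns of a salmon-type quantifier per the file headers. The authors' estimated counts are not scaled between libraries, and the deposited TPM is scaled within each library. No source used here names the quantifier, and mm10 and DESeq2 are named in the submitters' processing notes, with no role stated. Here 114200 of 115088 transcripts were matched to GENCODE M21 (mm10), and counts were summed per gene and rounded.

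The 9 myotube libraries were fitted with edgeR 4.0.16: filterByExpr (minimum count 10), TMM scaling, the prefix as a covariate (5 residual degrees of freedom), robust quasi-likelihood tests and Benjamini-Hochberg adjustment over all genes tested, called under 0.05. The stage difference came from the 18 libraries with the prefix within each stage (10 residual degrees of freedom). In simulated counts for 16097 genes 100 were changed 2-fold, 100 were changed 1.5-fold and 15897 were left unchanged. The edgeR test recovered 98% of the 2-fold and 89% of the 1.5-fold changes and called 0.107% of the unchanged genes. In the data 6070 genes were called, with a median absolute log2 fold change of 0.26, so these rates need not hold there. A comparison of both siRNAs with control shares the control libraries. No source used here says whether reads keep the strand, so reads of a gene and of one overlapping it on the other strand are not separable.

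The gene lists and members were chosen with earlier results of these data known, and lists are described by counts and medians beside those of all genes, with no set test. Named genes were the 12 largest rises and falls (called, coding, at least 5 CPM in the higher group, groups not overlapping), in each list the 4 smallest p-values and the largest fold against the direction of its median, the H3K36 list, and the 6 largest differences each way from siRNA 1 and between stages; others are marked as chosen after their values were seen. Alternatives were scaling, filtering, DESeq2, log2(TPM + 1) and log2(TPM + 0.1) with limma, the prefix and replicate terms, summed or fewer libraries and each library left out.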

Additional observations from a re-analysis of the deposited data

Results flagged for a closer look

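The effect of siRNA 2 differed between myotubes and myoblasts by the test of the difference itself for 2933 genes that were higher in myotubes and 3200 that were lower. Among the leading rises in myotubes this held for Col23a1 (difference 1.79 log2), Cdkn1c (2.04), Mlip (2.30) and Sfrp2 (1.66). Mlip's call was lost in 8 of its alternatives, with RLE scaling and when any of 7 libraries was left out. In myoblasts Mlip had few counts, 19 in the 3 control and 17 in the 3 siRNA 2 libraries.

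Among the leading falls it held for Serpinb9g (-0.74), Deptor (-0.97), Gm4070 (-1.14), Gm45062 (-2.95), Fam167a (-1.82), Gap43 (-0.85), Tas1r2 (-0.56), Pcdhb14 (-0.83) and Tas1r1 (-1.64). Gm45062 went down in myotubes (-1.70 in the fit of all libraries) and stood at 1.251 in myoblasts.

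The largest remaining differences were those of Grb14 (2.16), Rgcc (2.08), Stc1 (1.98), Tmprss11f (-2.56) and Synpo2l (-2.09). In myotubes Tmprss11f was near the floor, at 0.53, 0.55 and 0.38 CPM in controls and 0.10, 0.07 and 0.10 CPM with siRNA 2. Rgcc overlapped between the groups there, with means of 1.26 and 1.57 CPM. Others rest on few counts in myoblasts: Tmem252 (3.04) had 8 counts in the 3 control and 1 count in the 3 siRNA 2 libraries there, Gdf5 (-4.26) had 0 and 4, Gm13398 (-3.05) had 2 and 18 and Ncf1 (-2.07) had 10 and 20, so their fitted differences depend on the prior count of the model and are no bounds.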

How the results depend on the processing

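The Setd2 level kept its direction and its call in all 17 alternatives, from -1.26 to -1.54 on the log2 scale. For siRNA 2 against control the replicate numbers do not pair the libraries: same-numbered libraries correlated only where they share a prefix (control 3 and siRNA 2 replicate 3, of different prefixes, at -0.363). With a replicate block 4794 genes were called with the prefix term and 5570 without it, against 6070; for siRNA 2 against siRNA 1 the block gave 3533 and 3177 against 4030, and for the stage difference 5403 against 6133. On log2(TPM + 1) and log2(TPM + 0.1), 1409 and 1403 genes were higher than control and 974 and 964 higher than siRNA 1. With same-prefix libraries summed 1993 genes fell against control, and against siRNA 1 1979 were called, 974 higher and 1005 lower. With no prefix term 1249 genes were higher than with siRNA 1. Leaving out 1 library at a time gave 4089 to 5610 calls against control. Falls ranged from 2043, without control replicate 2, the only D1 control, to 2850. Without control replicate 3, named NT_2, 5478 genes were called, and without the myoblast siRNA 2 library whose column name holds SETD3 the stage difference gave 5523. DESeq2 called 4921 genes, and without a count filter 524 calls reached 2-fold, against 412. Signs turned for Col1a1, called up by 0.27 but at -0.0017 in the 6 libraries with no prefix term, -0.0144 with no prefix term and -0.0375 with the replicate block and no prefix term, and for Myog without control replicate 2 (0.0479). Of 52 list medians 15 changed sign on log2(TPM + 1) and on log2(TPM + 0.1). For 4 the median on counts was at least 0.1 in size: G1 regulators (-0.0017 on both), collagens (-0.016 and -0.0164), imprinted genes (-0.0957 on both) and endothelial markers (-0.2329 and -0.3622), where 1 of 4 genes passed the TPM filter and stood at -0.199 on counts too. The other 11 had smaller medians, the dystrophin complex, neuromuscular junction, Wnt and Notch lists among them. Cholesterol synthesis turned in the 6 libraries with no prefix term (0.0009). Apart from these, 0 to 7 medians turned in each other alternative, all under 0.1 in size on counts. The simulated test recovered 89% of 1.5-fold changes in counts where fewer genes changed, which need not hold for the smaller changes called here.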
